A study of Rattus norvegicus with 6 samples.

Results

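miR-199a and miR-214 are a pair of microRNA genes that lie close together and are known from mesenchymal cells, the fibroblasts, pericytes and smooth muscle cells of a tissue. Every listed name made of miR-199a or miR-214, alone or with an arm, was taken from the count table of rat lung, which gave 4 of 693 names. These were rno-miR-199a-5p, rno-miR-199a-3p, rno-miR-214-3p and rno-miR-214-5p, and the first 3 had enough reads to be tested. Small RNA had been sequenced from 3 lung samples of Sprague-Dawley rats after ischemia reperfusion (IR) and 3 of sham-operated rats (sham, labelled NC). Each sample gave 1 library. The rats were male and 7 to 8 weeks old. For IR, the hilum (root) of the left lung was clamped for 45 min and blood flow was then restored; how long the lung was reperfused could not be read from the labels or methods. Sham rats had the same surgery with no clamp. The labels name no genetic change and no drug in either group, and all rats were anesthetized.

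In mouse and human, miR-199a-2 and miR-214 are cut from 1 long noncoding RNA, Dnm3os, which runs antisense through the gene of the dynamin Dnm3 and is driven in mesenchymal cells by the transcription factor Twist1. miR-199a gives both of its arms as mature miRNAs. In rat heart muscle cells miR-199a-5p is known to repress Hif1a, a transcription factor of the response to low oxygen, and in human lung fibroblasts it represses CAV1, a membrane protein that restrains TGF-beta signalling. miR-199a-3p is known in human cells as a repressor of mTOR, a kinase of cell growth. miR-214-3p is known in the mouse heart as a repressor of the sodium-calcium exchanger Slc8a1.

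The mature sequences show what each name stands for. They are given 5′ to 3′ from RefSeq (rat build GRCr8) with the seed, bases 2 to 8, in capitals. miR-3120, which is no member, is shown because it comes from the opposite strand of the mir-214 hairpin.
miR-199a-5p: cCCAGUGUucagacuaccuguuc
miR-199a-3p: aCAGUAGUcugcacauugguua
miR-214-3p: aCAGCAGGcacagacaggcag
miR-214-5p: aGAGUUGUcaugugucu
miR-3120: cACAGCAAguguagacaggca

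The miR-199a arms lie at chr13:77116255-77116277 (5p) and chr13:77116294-77116315 (3p) on the plus strand of GRCr8, and miR-214-3p lies at chr13:77121713-77121733 on the same strand. Between the end of miR-199a-3p and the start of the mir-214 hairpin there are 5329 bases. All these places are inside the span of Dnm3, which is on the minus strand, so that the members are antisense to it and miR-3120, on the minus strand at chr13:77121672-77121692, is in the sense of Dnm3. Neither labels nor methods name the build used for mapping, so these places belong to the reference sequences and not to the reads.

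No 2 of the 5 seeds are the same. The seed of miR-199a-3p differs from that of miR-214-3p at 2 of its bases (U5C and U8G, counted from 1 at the 5′ end, miR-199a-3p first). The seed of miR-199a-5p differs from that of miR-199a-3p at 4 bases. The RefSeq table holds 693 mature rat names, of which 570 are also names of the count table, and no other name in it has the seed of a member or of miR-3120. In the count table, 0 other names had counts within 5% or 2 reads of those of a tested member or of miR-3120 in every library.

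The mir-214 hairpin is shown because it gives a miRNA on each strand. In it the second stretch in capitals is miR-214-3p (bases 69 to 89 of 108) and the first is the stretch opposite miR-3120 (bases 28 to 48).
mir-214 hairpin: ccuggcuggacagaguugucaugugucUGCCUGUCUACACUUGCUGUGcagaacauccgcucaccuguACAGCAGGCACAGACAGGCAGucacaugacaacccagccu

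Since the hairpin folds back on itself, miR-3120 resembles miR-214-3p, with 16 of 20 bases identical when miR-3120 is moved by 1 base. The moved start, with the differing base that falls within the seed, gives them different seeds. The rest of the 4 differing bases lie outside the seed. Neither labels nor methods state how many mismatches were allowed in mapping, or whether reads were counted by strand. Reads of bases 28 to 48 of the hairpin are the reverse complement of miR-3120. Without regard to strand they could be counted as miR-3120.

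The libraries held 3775663 to 11248166 listed miRNA reads in IR and 7459979 to 10718899 in sham. Sham replicate 3 stood apart: miR-21-5p, an inflammation-responsive miRNA, took 24.2% of its reads against 9.66% to 13.5% in the other 5 libraries, and its TMM factor was 0.867. TMM is edgeR's scaling factor for library composition, and levels below are TMM-normalized CPM (reads scaled to a library of 1000000), with no term for length, since a read stands for a whole miRNA. Whether the samples of a group came from separate animals is stated in the paper only as biological replicates. The p-values set the difference between the groups against the spread between these libraries.

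The miR-199a and miR-214 names together took 0.261%, 0.225% and 0.246% of the reads of the IR libraries, against 0.384%, 0.388% and 0.279% in sham. Their summed level was 2332 to 2486 CPM in IR and 3225 to 3687 CPM in sham, and the groups did not overlap. All 3 tested members were lower in every IR library than in every sham library, and 1 of them, miR-199a-3p, passed the test. Over all tested miRNAs, 16.7% were lower in every IR library and 2.63% were called lower. In whole lung, fewer cells of a type and less RNA per cell cannot be told apart.

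miR-199a-3p had 1139, 952 and 1193 CPM in the 3 IR libraries, against 1727, 1879 and 1565 CPM in the 3 sham libraries. Its means were 1095 ± 127 CPM in IR and 1724 ± 157 CPM in sham (SD, n = 3 each), and the gap between the groups was larger than the spread within either. The level in IR was 63.5% of that in sham, a log2 fold change of -0.65 with a standard error of 0.14 and a 95% interval of -0.98 to -0.33. The adjusted p was 0.0229 from edgeR's quasi-likelihood test with Benjamini-Hochberg adjustment over 418 miRNAs.

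miR-214-3p had 76.5, 73.6 and 83.2 CPM in IR, against 147, 140 and 99.0 CPM in sham. The IR libraries lay close together (77.7 ± 4.92 CPM, SD, n = 3), and the sham libraries (129 ± 26 CPM, SD, n = 3) were spread by sham replicate 3, which lay nearest to IR. The log2 fold change was -0.73, with a standard error of 0.20 and a 95% interval of -1.18 to -0.27, and the adjusted p = 0.0565 from edgeR missed the threshold. This point estimate was the largest of the 3 members, and its interval was also the widest.
Without sham replicate 3 the log2 fold change of miR-214-3p was -0.89 and its adjusted p = 0.0417 from edgeR. The groups of miR-214-3p overlapped as the authors' TPM, which divides by all listed reads with no TMM factor: IR replicate 3 had 87.7 and sham replicate 3 had 85.8. For miR-199a-3p the highest IR library had 1259 TPM and the lowest sham library 1356 TPM, so that the groups were apart on that scale too.

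miR-199a-5p had 1270, 1397 and 1056 CPM in IR, against 1737, 1667 and 1560 CPM in sham. The groups did not overlap, but IR replicate 2, the highest of its group, was nearer to sham replicate 3 than to IR replicate 3. The means were 1241 ± 172 CPM in IR and 1655 ± 89.2 CPM in sham (SD, n = 3 each). The log2 fold change was -0.42 (95% interval -0.74 to -0.09) with an adjusted p = 0.0968 from edgeR, which is not past the threshold. Leaving out IR replicate 3 brought it to -0.27, with an adjusted p = 0.337 from edgeR.

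miR-214-5p, listed as the other arm of the mir-214 hairpin, had 1 read in IR replicate 3 and 0 reads in the other 5 libraries. In the reference this name covers bases 12 to 28 of the hairpin. The stretch that pairs with miR-214-3p in the fold is bases 28 to 48, so the count says nothing on reads of that stretch. Against 5384 reads of miR-214-3p over all libraries, this is 0.0186% of the reads of both names. The 95% exact Clopper-Pearson interval, 0.000470% to 0.103%, covers counting error only, as the reads have no molecular identifiers. The percentage is no share of the whole hairpin, since neither name covers the stretch that pairs with miR-214-3p. A library with 0 reads allows a level of up to 0.280 to 0.795 TPM at 3 reads. No fold change is given.

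**Figure D1:**
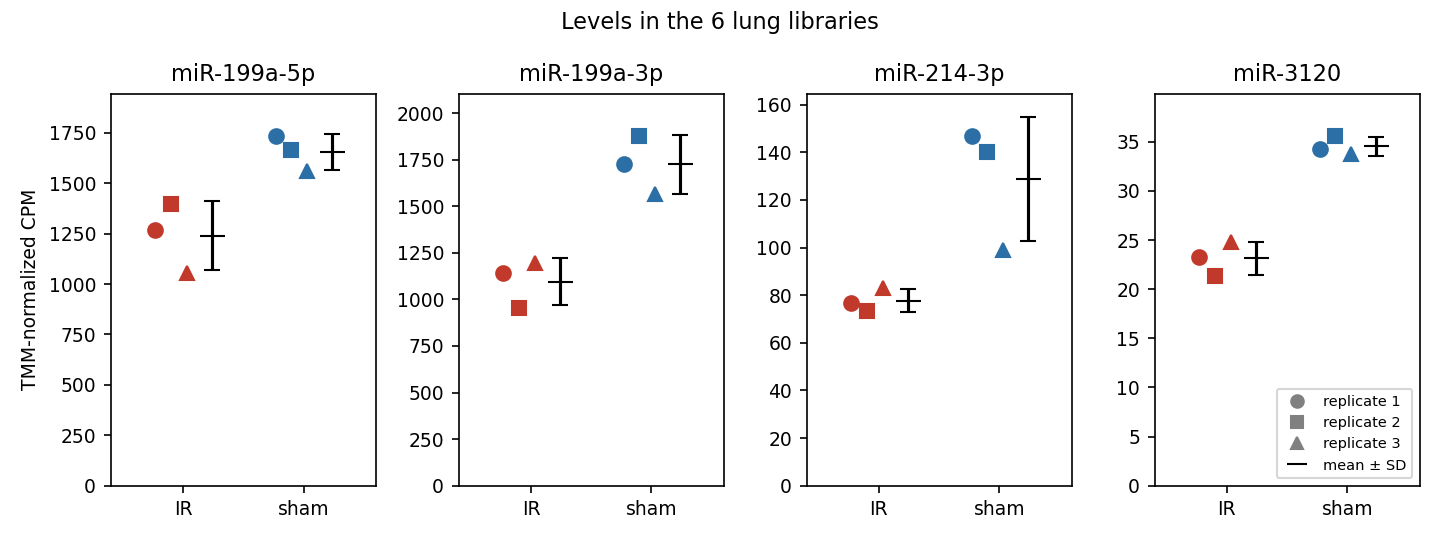
TMM-normalized CPM (vertical axes, each from 0) of miR-199a-5p, miR-199a-3p, miR-214-3p and miR-3120 in the IR (red) and sham (blue) libraries, with a symbol for each replicate number and the mean ± SD of 3 libraries in black. All IR points lie below all sham points in the 4 panels; the sham replicate 3 triangle of miR-214-3p, at 99.0 CPM, is the sham point nearest to IR.

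The count of members is read against all tested miRNAs. Of the 418, 11 were called lower in IR (2.63%) by edgeR's quasi-likelihood test, against 1 of the 3 tested members, and 33 were called higher (7.89%), against 0 of the 3. The log2 fold change was below 0 for 51.2% of the 418 and for all 3 tested members. A level lower in each IR library than in each sham library was found for 70 of the 418 (16.7%) and for all 3 tested members, and an unadjusted p under 0.05 with a lower level for 51 (12.2%) and again for all 3. With DESeq2 29 of 491 miRNAs with an adjusted p were called lower (5.91%), and miR-199a-3p and miR-214-3p were among them. The median log2 fold change of all 418 was -0.01. Some of the 418 names had the same levels as another name, such as miR-505-3p and miR-3589 (both 44.1 CPM in IR and 52.2 CPM in sham). These shares can therefore count the same reads more than once. The reference places the 3 members in 1 gene region and 2 of them in 1 hairpin, so they are not taken as 3 separate observations. A read of a mature miRNA does not show which gene copy it came from, and the count table has no miR-199b name.

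The call of miR-199a-3p depended on the setting and on the libraries. With all 6 libraries it was lost with total reads as the only scaling (adjusted p = 0.0711 from edgeR), with limma-trend (adjusted p = 0.0748) and with the replicate number as a block (adjusted p = 0.130 from edgeR). It was kept in 1 of the 6 fits with a library left out, without sham replicate 3 (adjusted p = 0.0445 from edgeR). The call was lost by a narrow margin when sham replicate 1 was left out (adjusted p = 0.05004 from edgeR). Leaving out IR replicates 1, 2 and 3 in turn gave 0.0610, 0.0621 and 0.0777, and leaving out sham replicate 2 gave 0.0640, all from edgeR. The log2 fold change stayed between -0.73 and -0.57 in these 6 fits.

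**Figure D2:**
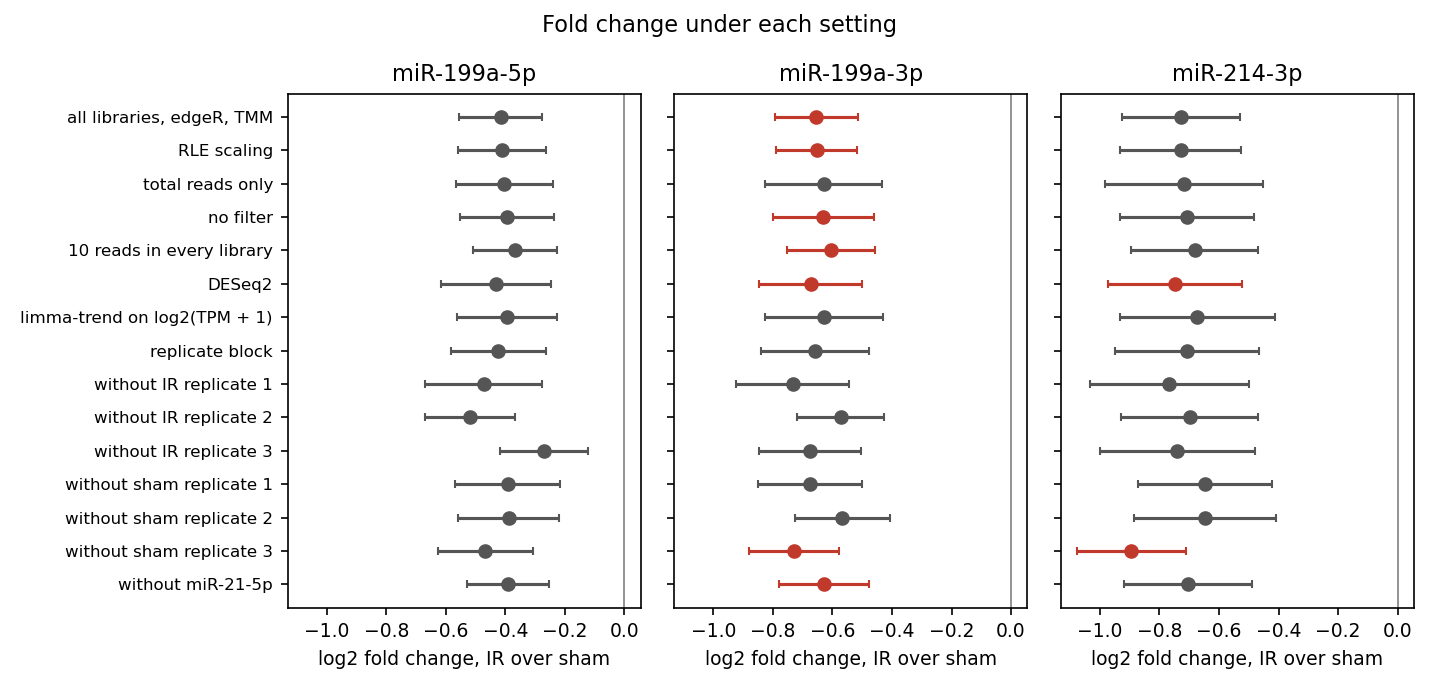
Log2 fold change of IR over sham (horizontal axes, bars are the standard error) of miR-199a-5p, miR-199a-3p and miR-214-3p under each setting, from 3 libraries per group or with 1 left out; points in red are past the adjusted p of 0.05 and grey points do not. All points lie below 0, and red points are found for miR-199a-3p in 7 rows, for miR-214-3p in 2 and for miR-199a-5p in none.

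In both groups the arms of miR-199a had the highest levels, with the 5p arm higher on average in IR and the 3p arm in sham, and the ranges of the arms overlapped in each group (places 51 to 63 among the 693 names by reads), followed by miR-214-3p (places 146 to 179) and miR-214-5p. Reads of miR-199a-3p were 12.9 to 14.9 times those of miR-214-3p in IR and 11.7 to 15.8 times in sham. These are read counts, and how many molecules of each miRNA gave a read was not measured.

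Ratios within a library need no scaling and show if members changed alike. The 3p arm made up 47.3%, 40.5% and 53.1% of the miR-199a reads in IR, against 49.9%, 53.0% and 50.1% in sham. The exact Clopper-Pearson 95% interval of IR replicate 2 ran from 39.5% to 41.6%, below that of every other library, while IR replicate 3 was at the level of sham replicate 2. The IR libraries were more spread than the sham libraries, mainly towards the 5p arm. The ratio of miR-199a-3p to miR-199a-5p differed by -0.23 on the log2 scale between IR and sham (exact permutation test, two-sided, p = 0.5, adjusted over 3 ratios 0.7), by -0.05 without IR replicate 2 and by -0.41 without IR replicate 3.

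**Figure D3:**
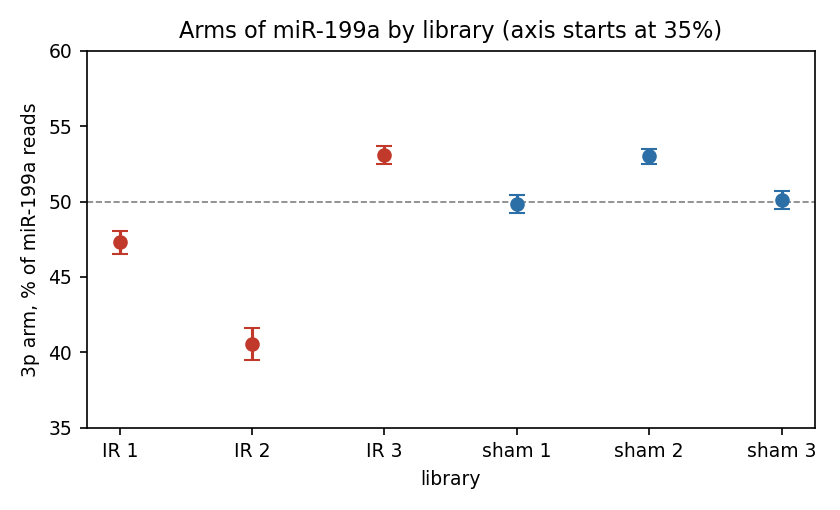
Share of the 3p arm in the reads of both miR-199a arms (vertical axis, percent, from 35%) in each IR (red) and sham (blue) library; bars are the exact 95% interval for counting error and the dashed line is 50%. IR replicate 2 is at 40.5% and the sham libraries lie between 49.9% and 53.0%.

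The ratio of miR-214-3p to miR-199a-3p overlapped between the groups. Reads of miR-214-3p per read of miR-199a-3p were 0.0672, 0.0773 and 0.0697 in IR, against 0.0851, 0.0746 and 0.0633 in sham, with both the highest and the lowest in sham. The log2 difference was -0.05 (exact permutation test, two-sided, p = 0.7, adjusted 0.7). The ratio of miR-214-3p to miR-199a-5p was 0.0603, 0.0527 and 0.0788 in IR, against 0.0847, 0.0841 and 0.0635 in sham. The groups overlapped, with a log2 difference of -0.28 (exact permutation test, two-sided, p = 0.2, adjusted 0.6). Leaving out IR replicate 2 gave -0.16, leaving out IR replicate 3 gave -0.45 and leaving out sham replicate 3 gave -0.42. With 3 against 3 libraries this test cannot go below 0.1, so it could not have called a difference between the members.

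miR-3120, placed by the reference on the other strand of the mir-214 hairpin, had 23.2, 21.4 and 24.8 CPM in IR. In sham it had 34.3, 35.6 and 33.7 CPM. Both groups were tight (23.1 ± 1.7 CPM in IR and 34.5 ± 0.992 CPM in sham, SD, n = 3 each) and apart. Its log2 fold change was -0.57 (standard error 0.18), and its adjusted p = 0.0761 from edgeR missed the threshold. It had 75 to 402 reads per library. DESeq2 gave -0.59 with an adjusted p = 0.0210.

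The miRNAs with the most similar pattern over the 6 libraries were ranked by the root mean square difference of log2 levels, each centred on its own mean, among 276 others with at least 10 CPM on average. These distances use all 6 libraries and both groups, and are a description. The nearest to miR-199a-3p was miR-3120, at 0.08 log2 units, followed by miR-532-3p (0.08) and miR-150-5p (0.12), a miRNA of lymphocytes. miR-214-3p was in place 4 from miR-199a-3p, at 0.14.
The nearest to miR-214-3p were miR-23b-3p (0.13), miR-199a-3p (0.14) and miR-500-3p (0.15). The nearest to miR-199a-5p were miR-26b-5p (0.15), miR-107-3p (0.16) and miR-3589 (0.17). The name of the other miR-199a arm, miR-199a-3p, was in place 59 of 276, at 0.25. Thus the pattern of miR-199a-3p was closer to that of the reads counted as miR-3120 than to that of miR-199a-5p in these 6 libraries. Which strand the reads counted as miR-3120 came from is not known.

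miRNAs of cell types in the lung were set beside the members, by their lists. Over all tested miRNAs 2.63% were called lower and 7.89% higher. A count of 0 called in lists as short as these therefore says little on whether they changed. The smooth muscle list (both arms of miR-143 and miR-145) had 0 of 4 called in either direction and a median log2 fold change of -0.12. miR-143-3p had 144304 ± 10574 CPM in IR and 144869 ± 16065 CPM in sham, and miR-145-5p had 6459 ± 2060 CPM in IR and 6297 ± 1624 CPM in sham (SD, n = 3 each). miR-145-3p and miR-143-5p were at -0.23 and -0.30 on the log2 scale without passing the test.
The other mesenchymal list (miR-140, miR-152 and miR-10b) had 0 of 5 tested called and a median of 0.00, with miR-140-3p at 0.13, miR-152-3p at -0.25, miR-140-5p at 0.00 and miR-10b-5p at 0.49. The summed level of each of these lists overlapped between the groups, at 141113 to 161068 CPM in IR and 133750 to 163120 CPM in sham for smooth muscle, and at 5037 to 5991 CPM in IR and 5059 to 5496 CPM in sham for the other list. The label mesenchymal cannot be checked further in these whole lung libraries, which hold no single cell type.

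The miR-29 family, which represses collagens and other matrix genes, had 2 of 6 higher (7.89% of all tested miRNAs were), 0 lower and a median of 0.54. miR-29c-5p had 101 ± 10.9 CPM in IR and 46.0 ± 7.82 CPM in sham (SD, n = 3 each), and miR-29b-5p had 27.7 ± 6.45 CPM in IR and 12 ± 0.705 CPM in sham (SD, n = 3 each). Their adjusted p was 0.0198 and 0.0229 from edgeR, in that order. miR-29a-3p, which had the most reads of the family, did not pass (log2 fold change 0.52, adjusted p = 0.105 from edgeR). miR-29b-3p (0.53, adjusted p = 0.159 from edgeR) and miR-29c-3p (0.55, adjusted p = 0.172 from edgeR) did not pass either. miR-29a-5p had a mean of 5.97 CPM in IR and 5.97 CPM in sham. Whether the names that passed repress matrix genes was not tested. miR-210-3p, the only tested name of the hypoxia-induced miR-210, had 67.8 ± 3.83 CPM in IR and 69.4 ± 9.85 CPM in sham (SD, n = 3 each).

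The leukocyte list (miR-142, miR-223 and miR-150) had 1 of 6 lower (2.63% over all tested), 6 of 6 below 0 (51.2% over all tested) and a median of -0.75. Its summed level was 2263 to 2554 CPM in IR and 3198 to 4567 CPM in sham, with no overlap. Of all single tested miRNAs, 16.7% were lower in every IR library than in every sham library. In the leukocyte list miR-150-5p passed, with 855 ± 139 CPM in IR and 1455 ± 67.0 CPM in sham (SD, n = 3 each, adjusted p = 0.0229 from edgeR). miR-142-5p (934 ± 180 CPM in IR and 1427 ± 388 CPM in sham, SD, n = 3 each) and miR-223-3p did not pass. The erythroid list (miR-451, miR-144 and miR-486) had 0 of 4 called and a median of -0.93 (-1.30 without sham replicate 1 and -0.35 without sham replicate 3), and its summed level overlapped, at 1493 to 2155 CPM in IR and 1234 to 4049 CPM in sham.
The epithelial list (the miR-200 family) had 0 of 9 called and a median of 0.33, with 19075 to 19618 CPM in IR and 13192 to 16188 CPM in sham. These sums did not overlap, but how many of all tested miRNAs were higher in every IR library was not counted. The endothelial list had 0 of 3 called, with 83221 to 105494 CPM in IR and 88128 to 111283 CPM in sham, and the ciliated cell list had 0 of 5 called and a median of 0.08, which was 0.64 without sham replicate 2, -0.15 without sham replicate 1 and -0.16 without sham replicate 3. The striated muscle list had 1 of 4 higher (7.89% over all tested), miR-1-3p at a log2 fold change of 1.31, and a median of 0.02 (0.34 without sham replicate 1 and -0.22 without sham replicate 3). Its other members had values of -0.01 (miR-133a-3p), -0.47 (miR-206-3p) and 0.05 (miR-133b-3p) and did not pass. miR-1b, a name outside this list, had 465 ± 37.8 CPM in IR and 486 ± 35.1 CPM in sham (SD, n = 3 each) and did not pass. None of the listed names was at 0 in all libraries, and the part of these cell types in the lower levels of miR-199a and miR-214 was not tested.

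**Figure D4:**
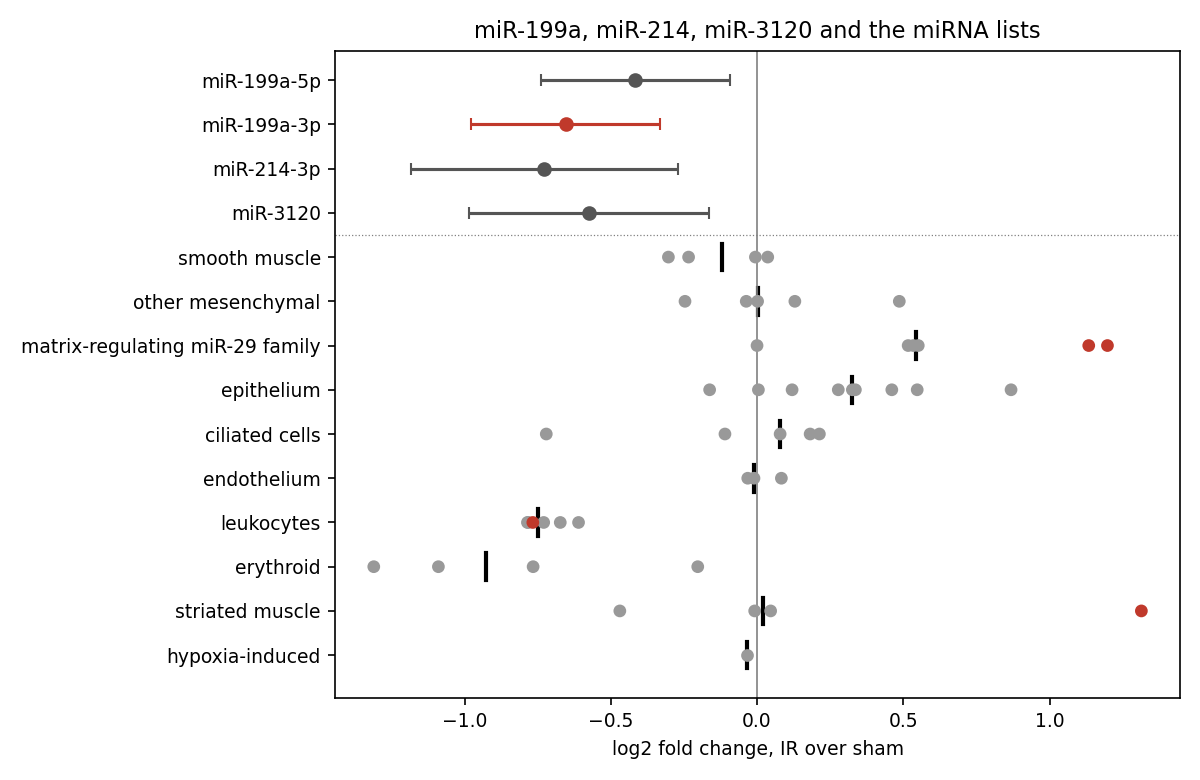
Log2 fold change of IR over sham (horizontal axis) from 3 libraries per group. In the upper 4 rows points are miR-199a-5p, miR-199a-3p, miR-214-3p and miR-3120 with the 95% interval; in the lower rows each point is a tested miRNA of a list and the black bar is the list's median; points in red passed edgeR's test. The upper 4 points lie between -0.73 and -0.42, and the medians of the smooth muscle and other mesenchymal lists are -0.12 and 0.00.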

How the data were processed

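The authors deposited raw read counts of each miRNA in each library. Beside them the authors deposited TPM values, which equal each count divided by the library's listed miRNA reads times 1000000, with no term for length. The submitters' processing notes name Bowtie. Genome build, annotation, counting tool and the treatment of multiply mapped reads were not given in the sources used here. Groups were taken from the sample titles; the number of value columns that matched no sample was 0.

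All miRNAs were fitted with edgeR 4.0.16 under R 4.3.3 (filterByExpr with a minimum count of 10 and a minimum total of 15, TMM, quasi-likelihood test of IR against sham, Benjamini-Hochberg adjusted p under 0.05). limma 3.58.1 and DESeq2 1.42.0 were used for alternatives, and matplotlib 3.10.9 (Python 3.11.15) for figures. The standard error is the size of the log2 fold change divided by the square root of F. The test was checked on simulated counts, where it called 62 of 95 miRNAs changed 2-fold, 92 of 96 changed 4-fold and 6 of 210 unchanged ones. The changed miRNAs were a larger part of the 401 tested there than the part called in the data. This makes the adjusted threshold easier to pass, so the share detected may be lower in the data. The tested members were 1.33 to 1.65 times lower in IR, so a miRNA that missed the threshold may still have changed. Alternatives were RLE or total-read scaling, 10 reads in every library or no filter, a replicate block, DESeq2, limma-trend (log2 of TPM + 1), each library left out, 10 reads added to ratios, and, chosen after seeing the data, miR-21-5p left out.

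The members and lists were chosen with earlier results of these data known. miRNAs named are the members, miR-3120, any miR-199b (0 names found) or miRNA sharing a seed, the 3 nearest in pattern to each member, and up to 4 abundant miRNAs of each list, of which some are left out. The lists were smooth muscle, other mesenchymal, miR-29, epithelial, ciliated, endothelial, leukocyte, erythroid, striated muscle and hypoxia-induced miRNAs. Protein, qPCR and cell culture data were not analysed here.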

Additional observations from a re-analysis of the deposited data

How the results depend on the processing

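The log2 fold changes of miR-199a-5p, miR-199a-3p and miR-214-3p stayed below 0 in all 14 alternatives each. miR-199a-3p missed the threshold with total reads only (-0.63, adjusted p = 0.0711), limma-trend (-0.63, 0.0748) and the replicate block (-0.66, 0.130 from edgeR); it was called in 6 of 14 alternatives, with adjusted p from 0.00165 (DESeq2) to 0.130, and ran from -0.73 to -0.57 with a library left out. miR-214-3p passed with DESeq2 (-0.75, adjusted p = 0.0111) and ran from -0.89 to -0.65 with a library left out; its adjusted p ran from 0.0111 to 0.199. miR-199a-5p was called in 0 of 14, with adjusted p from 0.0903 to 0.337. Members called were 0 with total reads, limma-trend and the replicate block, 2 with DESeq2, and 0 to 2 with a library left out. With the 10 read filter 7 of all miRNAs were called lower, with DESeq2 29 and with the replicate block 0, against 11; it was 0 to 17 with a library left out. The change in the ratio of miR-214-3p to miR-199a-3p ran from -0.16 to 0.05 with a library left out and turned sign without sham replicate 1 (0.0527). The change in the ratio to miR-199a-5p ran from -0.41 to -0.05 for miR-199a-3p and from -0.45 to -0.16 for miR-214-3p. The labels do not say whether the replicate numbers pair the samples. Deviations from the group mean gave r of -0.25, -0.38 and -0.16 for same-numbered libraries and -0.12 to 0.32 for the others. With 3 libraries per group these values cannot decide whether the samples were paired. The cause of these changes was not tested.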
